A study of Mus musculus with 2 samples.

Results

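Transcripts of 6 signal transducer and activator of transcription (STAT) genes, Stat2, Stat3, Stat4, Stat5a, Stat5b and Stat6, were read from 1-colour Affymetrix arrays of mouse T cells. The genes were chosen by name, with earlier results of these data known. Every probe set (several short probes that together read 1 transcript) annotated to exactly 1 of them was taken, which gave 13 of 34945 single-gene probe sets and 6 of 18193 genes on the array. The series held 2 samples, control T cells and T cells exposed to the retinal pigment epithelium (RPE), a layer of pigmented cells behind the retina, with 1 array each. Both samples came from male mice of C57 BL/6 background at 6 weeks of age. The title of the control named CD4 T cells, whereas the title of the exposed sample named no subset and its tissue field named primary cultured RPE. The labels used here do not say how the T cells were stimulated, how long they were exposed or how many animals were pooled. A single array per group leaves no spread between samples and allows no test, so every difference below describes these 2 arrays, whose number limits the precision.

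STAT proteins wait in the cytoplasm until a cytokine binds its receptor. Janus kinases on the receptor then phosphorylate a tyrosine of the STAT, and paired STATs enter the nucleus and bind DNA. In T cells STAT2 carries the type I interferon signal, STAT3 that of interleukins 6, 21 and 23, STAT4 that of interleukin 12, STAT5A and STAT5B that of interleukins 2 and 7, and STAT6 that of interleukin 4. Arrays measure the transcript and not the phosphorylated protein.

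T-cell genes were present at high signals on both arrays, and the control array also held CD8 transcripts. Of 8 T-cell markers compared, 4 were higher and 4 lower in exposed cells, with a median log2 difference of 0.01. Cd28, the costimulatory receptor, was the most different at 0.48. Cd28 alone of the 8 lay outside its like-level range, defined below, of -0.19 to 0.30. Among the lower markers Cd4 gave 287 in control and 271.1 in exposed cells (-0.08). The 2 probe sets of Cd4 had opposite signs and averaged 0.26 ± 0.48 (SD), so its direction is uncertain. Cd8a and Cd8b1, which encode the CD8 coreceptor, gave signals of 568.8 and 706.4 on the array titled CD4 T cells and 694.6 and 983.9 on the exposed array. The difference of Cd8b1, 0.48, lay above its like-level range of -0.36 to 0.36, and that of Cd8a, 0.29, within its own. Markers of B cells were lower in 6 of 7 genes, whose signals summed to 1519.7 in control and 1079.2 in exposed cells, and those of macrophages and dendritic cells in 7 of 9. Of the latter the MHC class II genes H2-Aa and H2-Ab1, which B cells also express, summed to 1919.3 and 1393.6, and the other 9 genes on the array to 214.4 and 166.3. Natural killer cell markers were lower in 3 of 4 genes, with sums of 223.1 and 191.3 and Klre1 at -0.82. Csf1r (29.1 and 31.4), Cd68 (44.4 and 30.6), Lyz2 (29.4 and 19.5) and Cd14 (21.7 and 16.1) were dim but above the floor on both arrays, and Itgam and Fcgr3 were under it on both. Lyz1, which had the widest gap in signal of those other 9 genes, was above the floor in control cells alone (41.3 and 7.5). It was at -0.45 with its 3 probe sets averaged. The floor is the median signal of an array (15.9 for control and 16 for exposed cells), and genes under it on both arrays were not compared. Of 9 RPE markers only Pmel, at 18.3 in exposed cells, reached the floor. These other cells also express STAT genes, and their part and that of CD8 T cells in the differences below were not tested. In such bulk samples fewer cells of a type and less RNA per cell cannot be told apart.

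All 13 STAT probe sets exceeded the floor of each array, and the differences between the samples were small. No member was 1.5-fold different in either direction, where 6.99% of the 11015 genes compared were, and none was 2-fold different, where 1.06% were. Taking each gene by its brightest probe set, Stat3, Stat5a, Stat5b and Stat6 were lower in exposed cells and Stat2 and Stat4 were higher. The 6 log2 differences, exposed minus control, ran from -0.33 to 0.20 with a median of -0.18, beside a median of -0.01 over all genes compared. Thus 4 members were lower and 2 higher, beside 51.5% lower and 48.3% higher among all genes, and from 6 genes no direction of the family can be read. When probe sets whose names end in x, s or a were left out, which removes Stat5a and Stat5b and takes Stat3 at -0.17, the median was -0.0078 over 4 members.

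**Figure D1:**
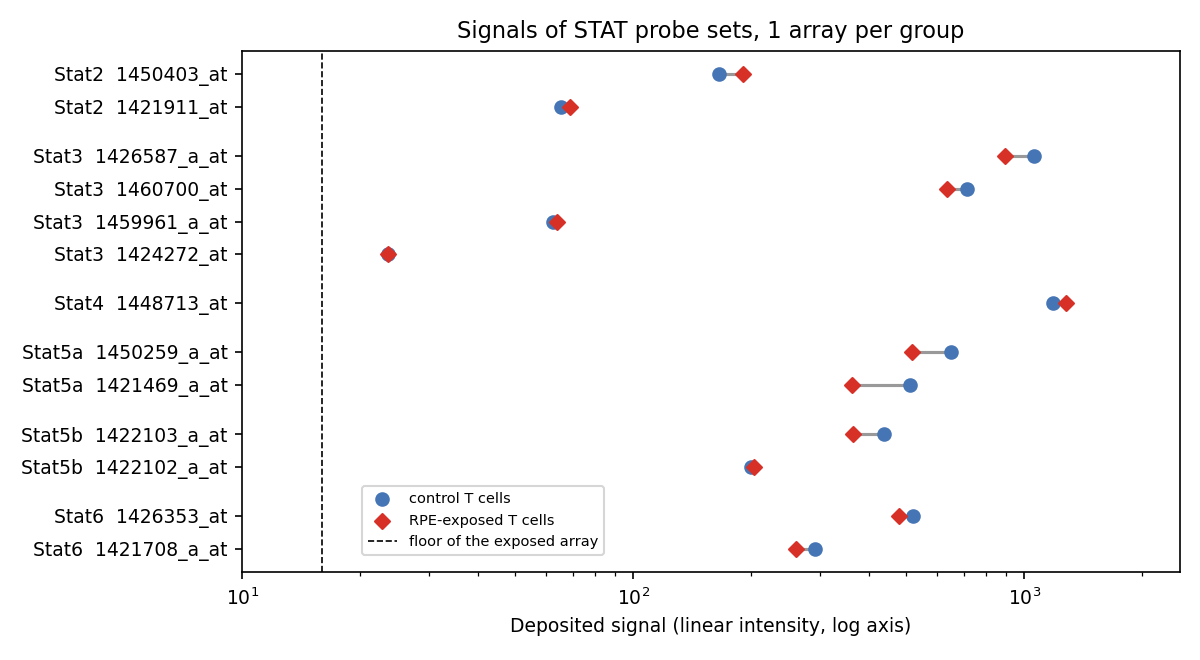
Deposited signal (linear intensity on a log axis) of each of the 13 STAT probe sets in control T cells (circles) and RPE-exposed T cells (diamonds), 1 array per group, with the floor of the exposed array dashed. Lines join the 2 arrays; the widest gap is that of Stat5a probe set 1421469_a_at, at 510.9 and 363.4.

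STAT5A and STAT5B are close paralogs that carry the growth and survival signal of interleukin 2. Stat5a had the largest difference of the family. Its probe set 1450259_a_at read 648.5 in control and 516.3 in exposed cells, a log2 difference of -0.33, or 1.26-fold lower. The other, 1421469_a_at, gave 510.9 and 363.4, a difference of -0.49. Both were thus lower in exposed cells, at -0.41 ± 0.11 (SD over 2 probe sets). Probe sets of 1 gene describe measurement on this pair of arrays and are not replicates of cells or animals. For scale, the pooled SD of log2 differences among probe sets of 1 gene was 0.10 at signals of 500 or more, 0.18 at 100 to 500 and 0.31 under 100.

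Against genes of like level Stat5a lay near the lower edge. For this the genes compared were ranked by signal and split into 20 bins of about equal gene number. The central 95% of genes in the bin of Stat5a, the like-level range, ran from -0.44 to 0.51. Stat5a stood at percentile 4.72 of its bin. The second probe set lay just under the range for its own level, -0.48 to 0.44. No member represented by its brightest probe set lay outside its like-level range, where 4.98% of all genes did.

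The probe sets of Stat5b did not go the same way. Probe set 1422103_a_at gave 436.8 in control and 365.0 in exposed cells, a log2 difference of -0.26, or 1.20-fold lower. Probe set 1422102_a_at gave 200.6 and 203.8, a difference of 0.02. Their average was -0.12 ± 0.20 (SD over 2 probe sets), so the lower value of Stat5b rests on 1 probe set. Among the 2706 genes with 2 probe sets above the floor, 33.1% had a larger SD, and in 62.9% both probe sets had the same sign. All 4 STAT5 probe sets carry the suffix a, for probes that match several transcripts of 1 gene. Whether probes of Stat5a and Stat5b share signal was not tested, so their values are uncertain as separate measurements.

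STAT3 is the factor that Th17 cells, the T cells that make interleukin 17, need for their differentiation. Its bright and dim probe sets differed. The brightest, 1426587_a_at, gave 1056.7 in control and 892.7 in exposed cells, a log2 difference of -0.24, or 1.18-fold lower. The next, 1460700_at, gave 716.0 and 635.4, a difference of -0.17. Both bright probe sets were therefore lower, each within the like-level range for its own signal (-0.36 to 0.36 and -0.44 to 0.51). The probe-set SD of 0.10 at that level describes agreement between probe sets of 1 gene and not the spread between samples. The dim ones showed no such difference: 1459961_a_at gave 62.4 and 63.9, a difference of 0.03, and 1424272_at gave 23.6 on both arrays. With all 4 averaged Stat3 was at -0.095 ± 0.13 (SD over 4 probe sets). Of 495 genes with 4 probe sets above the floor, 69.7% had a larger SD and 29.7% had 1 sign throughout. Likewise, of 567 genes with both a probe set at 500 or more and another under 100, the bright and dim ones had opposite signs in 42.2%. Stat3 stood at percentile 7.08 of its like-level genes, whose range was -0.36 to 0.36.

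STAT6 relays interleukin 4 and drives the Th2 fate, that of T cells which make interleukins 4 and 13. Its 2 probe sets had nearly the same small difference. Probe set 1426353_at gave 520.8 in control and 479.0 in exposed cells (-0.12, or 1.09-fold lower), and 1421708_a_at gave 292.1 and 260.3 (-0.17). Both were lower, at -0.14 ± 0.03 (SD), and 85.3% of genes with 2 probe sets had a larger SD. The gene lay at percentile 24.5 of its like-level genes, whose range was -0.41 to 0.37.

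Stat2 and Stat4 were the members with higher signals in exposed cells. STAT2 pairs with IRF9 in ISGF3, the complex that type I interferon forms to switch on antiviral genes. Its probe set 1450403_at gave 165.9 in control and 191.2 in exposed cells, a log2 difference of 0.20, or 1.15-fold higher, and 1421911_at gave 65.2 and 68.8, a difference of 0.08. Both were higher, at 0.14 ± 0.09 (SD over 2 probe sets), and the gene stood at percentile 82.2 of its like-level genes, whose range was -0.53 to 0.54. Stat4, which relays interleukin 12 and drives the Th1 fate of interferon-gamma producers, had 1 probe set, 1448713_at, with 1188.2 in control and 1278.0 in exposed cells. The difference of 0.11, or 1.08-fold higher, was about the size of the probe-set SD at that level, 0.10, and could not be checked against a second probe set. It lay at percentile 73.5 of its like-level genes, whose range was -0.36 to 0.36.

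**Figure D2:**
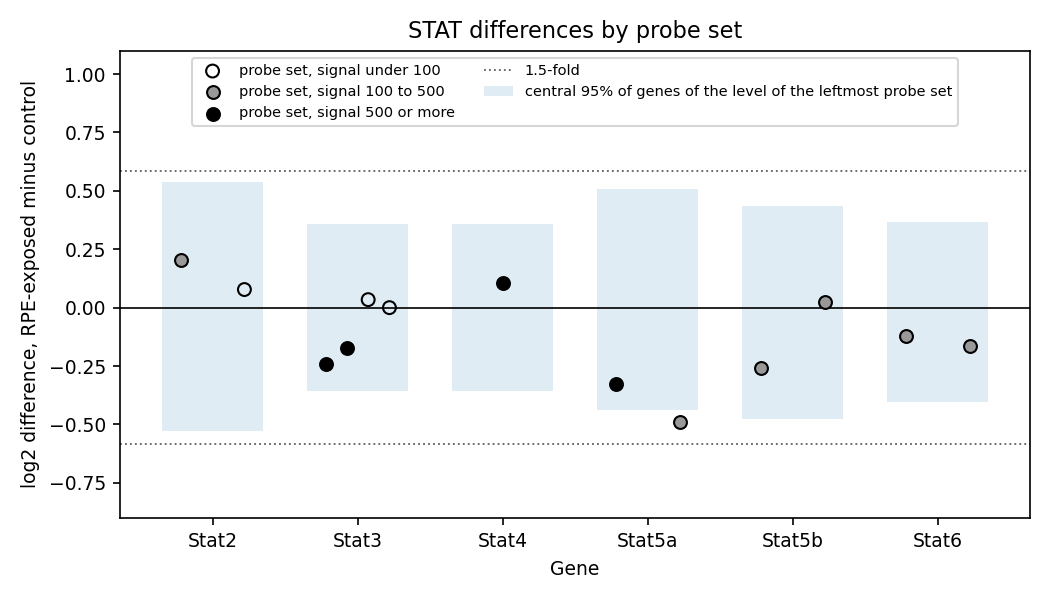
Log2 difference (RPE-exposed minus control) of every STAT probe set, shaded by signal, beside the central 95% of genes at the level of each gene's brightest probe set (bars) and the 1.5-fold lines (dotted). Both probe sets of Stat2 lie above 0 and both of Stat5a and Stat6 below it, while those of Stat3 and Stat5b spread across it.

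Of the 5 members with several probe sets, 3 (Stat2, Stat5a and Stat6) had the same sign in all of them. Over all 4779 genes with several probe sets above the floor this held in 50.7%. Of the 13 probe sets 7 were lower, 5 higher and 1 equal. The 4 lower members fall in 2 places of the genome: Stat5b, Stat5a and Stat3 are consecutive protein-coding genes on chromosome 11 of the mouse RefSeq annotation, and Stat6 is on chromosome 10, as is Stat2. With 2 arrays a gene has a single difference, so no other gene was named for a like pattern.

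RefSeq promoters of the 6 genes (build GRCm38.p6, 250 bases before to 50 after each start) were read for the DNA motifs of STAT complexes, on both strands. None of the 9 windows, which cover all 6 members, held TTCNNNGAA, the GAS motif of STAT dimers, which 8.3% of all 32851 windows held. The letters GAAA, any 2 bases and GAAA, the core of the interferon-stimulated response element (ISRE) to which ISGF3 binds, stood in 2 of the 9 windows, 1 of Stat2 and 1 of the 2 of Stat4, beside 3.44% of all windows. These were the 2 members with higher signals. A match is a description of the letters and no evidence of binding, and the search was made with the differences known. The 250 bases before the start follow for these 2 windows, Stat2 at chr10:128270248-128270497 and Stat4 at chr1:52007990-52008239, both on the plus strand, with the match in capitals. It begins 222 bases before the start in Stat2, where it reads on the reverse strand, and 97 bases before it in Stat4, where it reads forward.
Stat2: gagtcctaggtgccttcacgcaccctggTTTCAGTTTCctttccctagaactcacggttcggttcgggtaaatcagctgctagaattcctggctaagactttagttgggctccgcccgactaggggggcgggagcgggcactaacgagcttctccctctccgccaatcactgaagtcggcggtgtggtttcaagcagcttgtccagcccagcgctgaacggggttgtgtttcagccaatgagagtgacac
Stat4: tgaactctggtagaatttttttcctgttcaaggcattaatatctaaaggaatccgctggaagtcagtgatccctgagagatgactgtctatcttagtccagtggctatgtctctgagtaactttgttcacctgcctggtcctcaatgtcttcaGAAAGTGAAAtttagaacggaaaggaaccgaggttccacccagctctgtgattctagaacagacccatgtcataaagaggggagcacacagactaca

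Upstream of the STATs, Janus kinases and receptors were mostly alike between the arrays, with exceptions in Jak2, Il21r and Il4ra. Jak2, a kinase of the interleukin 12, interleukin 23 and interferon-gamma receptors, gave 780.4 in control and 529.3 in exposed cells. It was 1.47-fold lower (-0.56), with 2 probe sets at -0.52 ± 0.05 (SD), under its like-level range of -0.44 to 0.51. Jak3, the partner of the common gamma chain, gave 409.2 and 339.5 (-0.27), while Jak1 (0.05) and Tyk2 (0.05) were close to equal. No Janus kinase was 1.5-fold different.

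For STAT2, the interferon receptor chain Ifnar1 gave 247.2 in control and 326.9 in exposed cells (0.40, 2 probe sets at 0.33 ± 0.11), Ifnar2 gave 0.02, and the ISGF3 subunit Irf9 gave 303.5 and 353.0 (0.22). All 3 had positive differences, as Stat2 did, and all lay within their like-level ranges. For STAT4, the interleukin 12 receptor chains Il12rb1 (0.14) and Il12rb2 (-0.04) differed little.

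Among 6 STAT3-linked receptors compared, 5 were lower, none by 1.5-fold, with a median of -0.16. The interleukin 21 receptor, Il21r, gave 303.6 in control and 206.1 in exposed cells, 1.47-fold lower (-0.56, 1 probe set), under its like-level range of -0.48 to 0.43. Il27ra gave -0.38 and Il6ra -0.28. The shared chain Il6st (-0.04), Il10rb (-0.02) and Il10ra (0.12, but -0.03 with all probe sets averaged) were near 0. Lifr and Osmr were under the floor on both arrays.

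Of 4 receptor chains of STAT5 cytokines 3 were higher, while Stat5a was lower. Il2ra, the high-affinity chain of the interleukin 2 receptor, gave 1200.7 in control and 1482.4 in exposed cells (0.30, 2 probe sets at 0.44 ± 0.19), Il2rb gave 0.21 and Il7r 0.11. Il15ra was lower at -0.32, but its 2 probe sets had opposite signs, as did the 2 of Il7r (0.04 averaged). In contrast Il4ra, the interleukin 4 receptor chain that docks STAT6, gave 592.8 and 324.7. It was 1.83-fold lower (-0.87, 2 probe sets at -0.98 ± 0.16) and lay under its like-level range of -0.48 to 0.44. It alone, of the receptor chains in these 5 upstream lists, was past 1.5-fold, where 3.87% of all genes were lower by that size. Il9r and Il13ra1 were under the floor on both arrays.

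The cytokines that act through these receptors were lower as transcripts in 8 of 10 genes compared. Of these 7 were lower by at least 1.5-fold, beside 3.87% of all genes, and 4 by at least 2-fold, beside 0.626%. This list too was written with earlier results of these data known, so its counts are no independent evidence of a direction. The largest differences were in Il13 (-2.05), Il4 (-1.48) and Il12a (-1.45), of which Il12a gave 53.3 in control and 19.5 in exposed cells, and in Il21 (-0.98). Il2, the main activator of STAT5, lay above the floor on the control array alone (39.8 and 14.3) and was at least 2.49-fold lower. Il12a and Il2 were under 2-fold with an offset of 16 (-0.97 and -0.80), and Il4 was at -0.14 with a floor at the 75th percentile of each array. The 2 higher ligands, named after their values were seen, were Il10 (0.76), which signals through STAT3, and Il15 (0.03). The other 5 ligands on the array were under the floor.

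Of 17 negative regulators of the pathway 12 were lower and 5 higher, with a median of -0.13. At least 1.5-fold lower were 3, beside 3.87% of all genes. Under their like-level ranges lay 4 of the 17, these 3 and Ptpn2, where 4.98% of all genes lay outside in either direction. Ptpn2, named after its values were seen, was at -0.32, but at -0.07 when probe sets with the suffix x, s or a were left out. The 3 past 1.5-fold are feedback genes that STATs are known to induce. Cish, an inhibitor of STAT5 signalling, gave 925.9 in control and 485.1 in exposed cells (1.91-fold lower). Socs3, which blocks STAT3 receptors, gave 1077.4 and 600.1 (1.80-fold lower), with its 3 probe sets at -0.83 ± 0.02 (SD). Socs1, an inhibitor of Janus kinases, gave 368.8 and 224.6 (1.64-fold lower). Socs2 was next at -0.34, and all 4 of its probe sets above the floor were lower, at -0.54 ± 0.20 (SD). None of the 17 was 1.5-fold higher, where 3.12% of all genes were, but Socs6 (0.20) was at 0.61 when probe sets with the suffix x, s or a were left out. The differences of Socs4, Socs5, Socs7 and Pias3 changed sign with probe sets averaged. The 5 coactivators and partners, with a median of 0.22 (0.08 with all probe sets averaged), held no gene past 1.5-fold. Ep300, an acetyltransferase that STATs recruit, gave 0.22 and its relative Crebbp 0.23, but the latter was at -0.26 with all probe sets averaged. Ncoa1 gave -0.10.

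**Figure D3:**
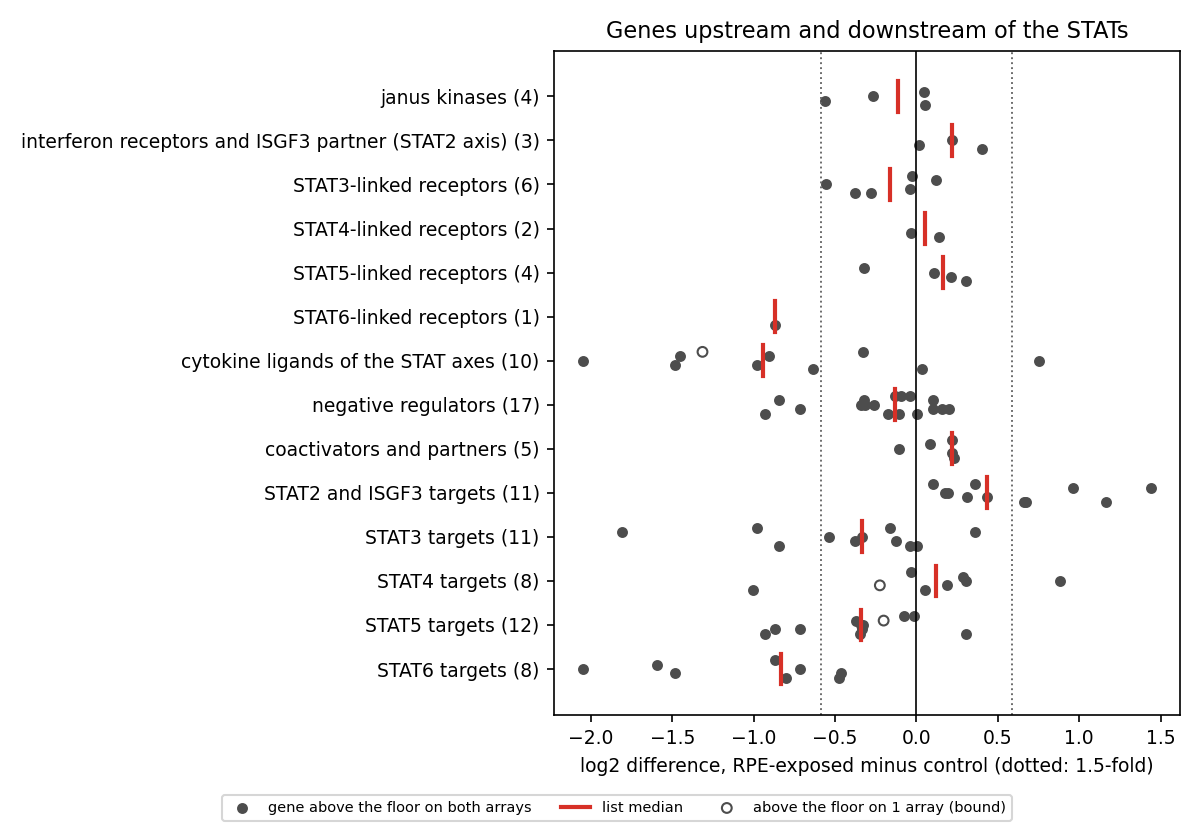
Log2 difference (RPE-exposed minus control) of genes in 14 lists around the STATs, 1 point per gene compared (number in brackets), open where the gene lay above the floor on 1 array, with list medians as red lines and 1.5-fold dotted. All 11 STAT2 and ISGF3 targets lie above 0 and all 8 STAT6 targets below it.

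All 14 lists, those of STAT target genes included, were written with earlier results of these data known, and several share genes. Their counts therefore describe the listed genes and are no independent evidence of a direction. Over all 85 distinct pathway genes compared, 15 were at least 1.5-fold lower and 7 at least 1.5-fold higher, beside 3.87% and 3.12% of all genes, with a median of -0.08. With the floor at each array's 75th percentile 2 were higher.

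STAT2 and ISGF3 targets were higher in 11 of 11 genes, 5 of them by 1.5-fold, beside 3.12% of all genes. Their median was 0.43, or 0.25 over the 6 genes left under a 75th-percentile floor, while Stat2 itself was at 0.20. Most were dim, and 2 of the 11, Rsad2 and Rtp4, lay above their like-level ranges, where 4.98% of all genes lay outside in either direction. The antiviral genes Rsad2 and Mx1 gave 18.5 and 21.2 in control and 50.3 and 41.3 in exposed cells (1.44 and 0.96), Rtp4 gave 70.2 and 157.4 (1.16) and Ifit1 31.5 and 50.2 (0.67). With all probe sets averaged Rsad2 and Rtp4 were at 0.60 and 0.59. The remaining gene past 1.5-fold, Oas2 (0.66), is named after its values were seen. With an offset of 16 Ifit1 was at 0.48 and Oas2 at 0.49, both under 1.5-fold.

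STAT3 targets were lower in 9 of 11 genes, 3 of them by 1.5-fold, beside 3.87% of all genes. Their median was -0.34, but -0.13 with all probe sets averaged and -0.17 under a 75th-percentile floor. The 3 were Il17a (-1.81), the Th17 cytokine, Il21 (-0.98) and Socs3 (-0.84). Rora, a Th17 transcription factor, gave -0.54 but -0.06 with all probe sets averaged. STAT4 targets were split, with 5 of 8 higher and a median of 0.12 (0.19 under a 75th-percentile floor). Ifng, the Th1 cytokine, which natural killer cells also make, was lower at -1.01, while the interleukin 18 receptor chains Il18r1 (0.88, but 0.48 under a 75th-percentile floor) and Il18rap (0.28, 2 probe sets at 0.59 ± 0.43) were higher, as was Il2ra (0.30). The factor Hlx was above the floor in control cells alone, at 18.7 and 8.2.

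STAT5 targets were lower in 11 of 12 genes, 3 of them by 1.5-fold, beside 3.87% of all genes. Their median was -0.34, while Stat5a was at -0.33 and Stat5b at -0.26 (-0.41 and -0.12 with probe sets averaged). Those 3 were Cish (-0.93), Il4ra (-0.87) and Socs1 (-0.72). The survival gene Bcl2 followed at -0.37, with 4 of its 5 probe sets lower, and Ccnd2, a G1 cyclin named after its values were seen, was at -0.08 with 7 of 7 probe sets lower. Il2ra was the higher one. Foxp3, the regulatory T-cell factor, reached the floor in control cells alone, at 18.4 and 15.8. STAT6 targets were lower in 8 of 8 genes, 6 of them by 1.5-fold and 3 by 2-fold, beside 3.87% and 0.626% of all genes, with a median of -0.84, while Stat6 itself was at -0.12. They were led by Il13, the cytokine Il24 (-1.59) and Il4, whose levels on the exposed array were 20.1, 65.2 and 35.6, followed by Il4ra. STAT5 and STAT6 targets share Il4ra and Socs1.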

How the data were processed

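Per the labels' protocols, total RNA of each T-cell sample was turned into biotin-labelled cRNA for Affymetrix arrays. The table deposited by the authors gives each probe set 1 intensity per array, not log-transformed and already on a common scale (the mean without the lowest and highest 2% was 100.0 on each array). The summarization software is not given in the sources used here. Platform annotation named 1 gene for 34958 probe sets, 932 had several and 9160 non-control ones none listed. Control probe sets were left out of the gene comparisons.

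Log2 differences, exposed minus control, were computed in pandas 2.3.3 and numpy 2.4.6 (Python 3.11.15) and plotted in matplotlib 3.10.9. Signals under the floor (each array's median) were set to it, and genes above it on at least 1 array were compared. A gene above it on 1 array has a fold that is a lower bound. The probe set brightest on average over the log2 signals of both arrays stood for its gene. Like-level ranges used 20 bins of genes ranked by mean signal, with about equal numbers of genes. The steps were tested on simulated data with planted changes larger than 2-fold in brighter genes. That check does not cover differences as small as those of the STATs, or dim genes. There was no test with 1 array per group.

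The members and the 14 pathway lists were chosen with earlier results of these data known. The rule named every member, Janus kinase and receptor chain, up to 4 genes of each other list by size of difference, and genes above the floor on 1 array. Of 103 listed pathway genes 95 were on the array with a single-gene probe set, and the rest are not analysed here. The 8 alternatives changed the floor, scaling, probe-set choice or offset.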

Additional observations from a re-analysis of the deposited data

How the results depend on the processing

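Under the 8 alternatives no member changed direction and none reached 1.5-fold, and 2 members had a positive difference in each. Several of these could not have changed a direction, so they are not 8 separate checks. Changing or dropping the floor left every member's value as it was, and median centring subtracted the same -0.011 from every gene. Stat4, with 1 probe set, cannot change with the choice of probe set. Stat2 ran from 0.14 to 0.22, Stat4 from 0.06 to 0.12 and Stat6 from -0.14 to -0.11. Stat5a ran from -0.41 to -0.32 and Stat5b from -0.26 to -0.12, over 7 alternatives, since neither has a probe set without the suffix a. Stat3 was at -0.095 with all probe sets averaged, and the members' median ran from -0.19 to -0.0078.

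A list median was counted as moved where it changed by more than the pooled probe-set SD of 0.24. The median of cytokine ligands was at -0.63 with a 25th-percentile floor and also without a floor, at -0.33 with a 75th-percentile floor and at -1.23 with averaged probe sets. The STAT6-linked receptors were at -0.17 with a 25th-percentile floor and without a floor, both of which add Il13ra1. Pathway genes at least 1.5-fold higher numbered 2 with a 75th-percentile floor, where fewer genes were tested. The Janus kinase median changed sign in 1 alternative, to 0.05, where probe sets with the suffix x, s or a were dropped and Jak3 with them. No paired analysis was possible because each group has 1 array. Low signals limit the dim targets most, where probe sets of a gene differ with an SD of 0.31.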
